A study of Homo sapiens with 4 samples.

Results

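Sites in genes that carry a LINC symbol (LINC followed by digits), most of them long intergenic noncoding RNA genes, were described in 2 lists of sites from RNA recovered with PARP1. A site belonged to the set when the gene identifier given for it, with the version number removed, had such a symbol in the annotation, whatever its region or type of mutation, and sites on the gene's strand (sense) and on the opposite strand (antisense) were counted apart. The set held 1785 of 166248 sites in IP 1 (1.07%) and 2979 of 229782 sites in IP 2 (1.30%). They lay in 842 of the 1886 LINC-named genes of the annotation, and 1044 had no site in either IP. By annotated type, 1712 of the 1886 are long intergenic noncoding RNA genes, 83 antisense, 46 processed transcripts and 4 protein-coding, with smaller types besides. A coding gene overlaps 116 of the 1886.

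The RNA came from HK-2, an established epithelial line from the human kidney's proximal tubule, with 2 PARP1 immunoprecipitations (IP 1 and IP 2) made with a Flag antibody and 2 inputs that were not analysed here. The labels name no treatment, time or construct, describe no crosslinking, and do not say if IP 1 and IP 2 were separate cultures. Their spread may be technical. A site in the lists is a single stranded position of GRCh38 with 3 values: its tags (sequenced fragments that cover it), its mutated tags (2 or more) and the authors' false discovery rate (FDR). With 1 group of 2 samples no test between groups could be made, and no test was made between gene classes. Values are given for each IP, with exact 95% binomial intervals for shares that cover counting error only.

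PARP1 senses DNA breaks in the nucleus, where it modifies itself and other proteins with poly(ADP-ribose), and it also binds RNA. LINC is the symbol root for long noncoding RNAs transcribed from between protein-coding genes, used with a number where the RNA has not been named for a function. Many of these RNAs are capped, spliced and polyadenylated, stay in the nucleus and are made in few tissues, and unspliced precursors with long introns are part of what can be recovered from nuclear RNA. A tag in an intron can come from such a precursor, and a tag on the opposite strand from RNA other than the annotated one.

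At the same base and strand, 44 LINC sites were in both lists, which is 2.46% of those in IP 1 and 1.48% of those in IP 2, beside 4.17% and 3.02% of all sites. Of these 44 bases, 6 lay far enough inside an annotated exon for the surrounding reference sequence to be read from the annotation's transcripts. These are shown because they are the recurrent bases for which an RNA sequence can be given. The reference sequence is GRCh38, 29 bases long, read 5′ to 3′ on the strand of the site, and the capital marks the base at which tags were mutated. All 6 sites were substitutions. The first 5 are exonic and on the gene's strand, and the last is antisense to its gene. The LINC00294 base also lies in TCP11L1 and the LINC00311 base in GSE1. Both are coding genes on the same strand, so the tags at these bases may come from either gene. LINC00667, LINC00294, LINC00311 and LINC00638 were taken by the rule for named genes, and LINC00857 and LINC01749 were added after their values were seen.
LINC00667, chr18:5238195-5238223, plus strand: gaacaacgagcttaCggaccgggtgcggg
LINC00294, chr11:33076426-33076454, plus strand: acctccttggtgttTgttacaggttgggt
LINC00311, chr16:85285779-85285807, plus strand: cacatctgtgatccCtgtccacagtaaag
LINC00638, chr14:104823565-104823593, plus strand: aaaatcagccaggcGtggtgacgggcacc
LINC00857, chr10:80218621-80218649, plus strand: tgggtccatgtattCatgagtgtgcacat
LINC01749, chr20:63053177-63053205, minus strand: ggggctggaggggtAggggaggctgggct
The LINC00667 base had 4 of 4 tags mutated in IP 1 and 2 of 2 in IP 2. The LINC00857 base had 2 of 2 and 3 of 3, and the remaining 4 bases had 2 of 2 in each IP. The LINC00667 base also lies in the RefSeq promoter window (GRCh38.p14) around the start of LINC00526, which is transcribed from the other strand.

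Sites in LINC-named genes were mostly intronic. In IP 1, 1256 sites were sense (1170 in introns and 86 in noncoding exons) and 529 were antisense. In IP 2, 1905 were sense (1806 in introns and 99 in exons) and 1074 were antisense. The exon share of sense sites was 6.85% (95% interval 5.51 to 8.39) in IP 1 and 5.20% (4.24 to 6.29) in IP 2. In other long noncoding RNA genes it was 8.04% and 7.52%. Both LINC values lay below these, and the intervals overlapped in IP 1 only.

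By mutation type, 79.4% of LINC sites in IP 1 and 79.8% in IP 2 were substitutions. Deletions accounted for 16.6% and 15.7%, insertions for 3.98% and 4.57%. Over all sites of the lists deletions made up 21.8% and 21.0%. Most LINC sites rested on 2 tags, both mutated: 89.0% (87.4 to 90.4) in IP 1 and 92.1% (91.1 to 93.1) in IP 2, against 79.1% and 78.4% in protein-coding genes, 87.6% and 87.3% in other long noncoding RNA genes and 93.4% and 93.9% between genes. Sites with 3 or more mutated tags numbered 71 in IP 1 and 127 in IP 2 (3.98% and 4.26%), against 9.52% and 10.2% in protein-coding genes. The tags over LINC sites summed to 4172 and 6642, and no site had more than 14. LINC sites were thus mostly at the smallest tag number the lists hold.

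Deletions came in strings of neighbouring bases. The 296 deleted bases of IP 1 formed 167 runs of consecutive bases and the 467 of IP 2 formed 255, with longest runs of 11 and 10 bases. In the exons for which sequence could be read, 7 of 17 deletions in IP 1 (41.2%) and 12 of 25 in IP 2 (48.0%) lay in a run of 3 or more identical bases, against 11 of 64 substitutions (17.2%) and 11 of 62 (17.7%). In the exons of other noncoding genes these shares were 40.4% and 42.1% for deletions and 15.5% and 16.8% for substitutions, close to the LINC values. An example is a LINC00963 insertion of IP 2 with 2 of 12 tags mutated, at the start of a run of T (chr9:129489176-129489204, plus strand, the capital marking the listed base): gctactgaccacagTtttctcatctctaa. LINC00963 is a long noncoding RNA studied in prostate cancer.

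LINC00511 held more sites than any other LINC-named gene in both IPs. It is a long noncoding RNA on chromosome 17 (72290091 to 72640472, minus strand, 350 kb), transcribed next to the gene desert of SOX9 and studied in epithelial tumours. Its sense sites numbered 112 in IP 1 and 89 in IP 2, or 3.20 and 2.54 per 10 kb of span. On the opposite strand there were 10 and 9. It alone held 6.83% of all LINC sites in IP 1 and 3.29% in IP 2, and 13.7% and 7.59% of the tags over LINC sites.

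Its sense sites also differed in kind from those of the other LINC-named genes. In LINC00511 76 of 112 were deletions in IP 1 (67.9%, 58.4 to 76.4) and 46 of 89 in IP 2 (51.7%, 40.8 to 62.4), against 13.6% and 15.1% of the other LINC sense sites. The median number of tags was 4 in each IP and the mean 5.11 and 5.66, against a median of 2 and means of 2.19 and 2.16. Of the LINC sites with 8 or more tags, 23 of 29 in IP 1 and 23 of 30 in IP 2 were in LINC00511. Only 2 tags were mutated at 22 of these 23 in IP 1 and at 18 of 23 in IP 2. The antisense sites of the same gene had no more than 2 tags. Sense-strand sites within 1 Mb on either side of the gene had mean tag numbers of 2.55 (n = 75) and 2.10 (n = 146). Of these flanking sites, 2 in IP 1 (2.67%) had 8 tags, and none in IP 2 had more than 5. Because a run of deleted bases is listed base by base, the 112 and 89 sites amounted to 80 and 73 runs.

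Deletions and tag numbers moved together in LINC-named, other long noncoding RNA and protein-coding genes. Among LINC sense sites with 2 or 3 tags, 12.8% in IP 1 and 13.8% in IP 2 were deletions. With 4 to 7 tags these shares were 60.2% and 50%, and with 8 or more they were 89.7% (26 of 29) and 65.5% (19 of 29). LINC00511 itself held 22 of these 26 deletions and 17 of these 19, so the highest range mostly describes that gene. Its sites are in the range of 4 to 7 tags as well. Protein-coding genes had 19.9% and 20.4%, then 51.8% and 51.8%, then 69.7% and 67.2% in the same tag ranges. The high deletion share of LINC00511 stood beside its high tag numbers, and the part of the one in the other was not tested.

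Along LINC00511 the sites were not spread evenly. Divided into 5 equal parts of 70.1 kb from the annotated start, the sense sites of IP 1 numbered 19, 39, 27, 26 and 1. Those of IP 2 numbered 13, 38, 23, 14 and 1. The mean number of tags was 6.11 in part 1 and 3.46 in part 4 in IP 1, and 8.46 and 3.36 in IP 2. All sites with 8 or more tags lay between 49.2 and 194 kb from the start in IP 1 and between 49.7 and 180 kb in IP 2. Both IPs thus had the deepest sites in the first 3 parts and 1 site in the last.

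**Figure D1:**
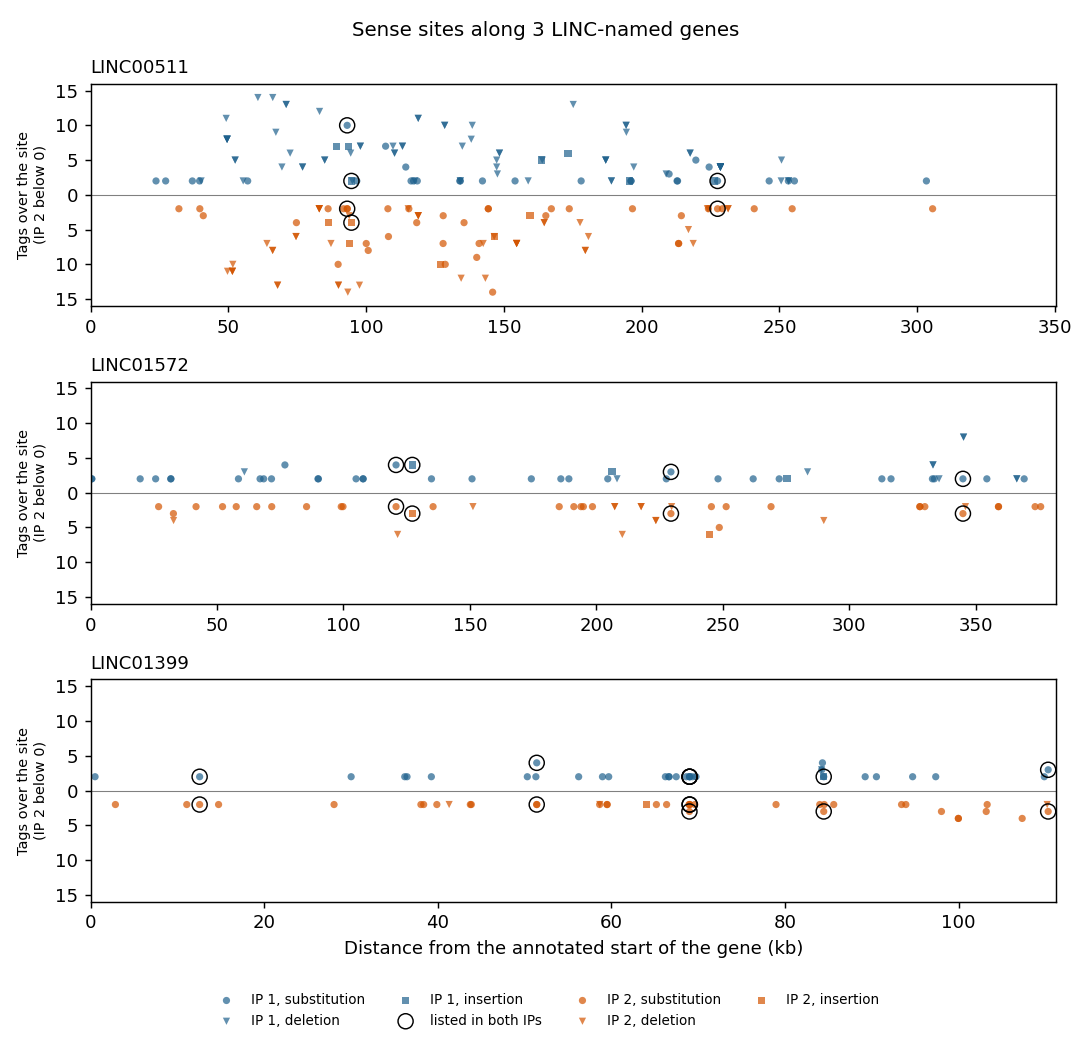
Sense sites along LINC00511, LINC01572 and LINC01399, with the distance from the annotated start in kb on the x axis and the number of tags over the site on the y axis (IP 1 above 0, IP 2 below 0). Marker shapes give the mutation type and circles mark bases listed in both IPs; LINC00511 reaches 14 tags in both IPs, whereas no LINC01399 site has more than 4.

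Further LINC-named genes had many sites in both IPs. The sense sites of LINC01572 (chromosome 16, 72283301 to 72665009, minus strand, 382 kb) numbered 48 in IP 1 and 45 in IP 2, and its antisense sites 0 and 1. LINC01399 (chromosome 22, 35119824 to 35231056, minus strand, 111 kb) is typed in the annotation as a transcribed processed pseudogene. Tags in the copied part may thus be shared with its parent gene, and where that part lies was not looked up. LINC01399 had 33 and 40 sense sites, of which 1 and 4 were exonic and 31 and 36 were substitutions, against 2 and 4 antisense sites. The exact Poisson intervals of the 2 IPs overlapped for LINC01572 (35.4 to 63.6 and 32.8 to 60.2) and for LINC01399 (22.7 to 46.3 and 28.6 to 54.5).

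LINC01515 had 29 and 35 sense sites, LINC01278 23 and 23, LINC01170 18 and 21, and LINC01376 19 and 18. LINC01508 had 14 and 23, LINC00662 18 and 18, and LINC01239 10 and 24. These 10 genes with the most sense sites span 109 to 382 kb. Among the genes with at least 5 sense sites in each IP, LINC01399 was the densest by the sum of both, with 2.97 and 3.60 per 10 kb of span. LINC00511 followed with 3.20 and 2.54, then LINC00963 with 1.98 and 3.64, LINC02086 with 1.65 and 2.15 and LINC00662 with 1.65 and 1.65. LINC00963 was the gene of these 5 with many exonic sites, 5 of 6 in IP 1 and 6 of 11 in IP 2. Outside that rule, and picked after its values were seen, the short gene LINC01355 had 2 and 11 sense sites, all exonic, which is 3.67 and 20.2 per 10 kb.

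**Figure D2:**
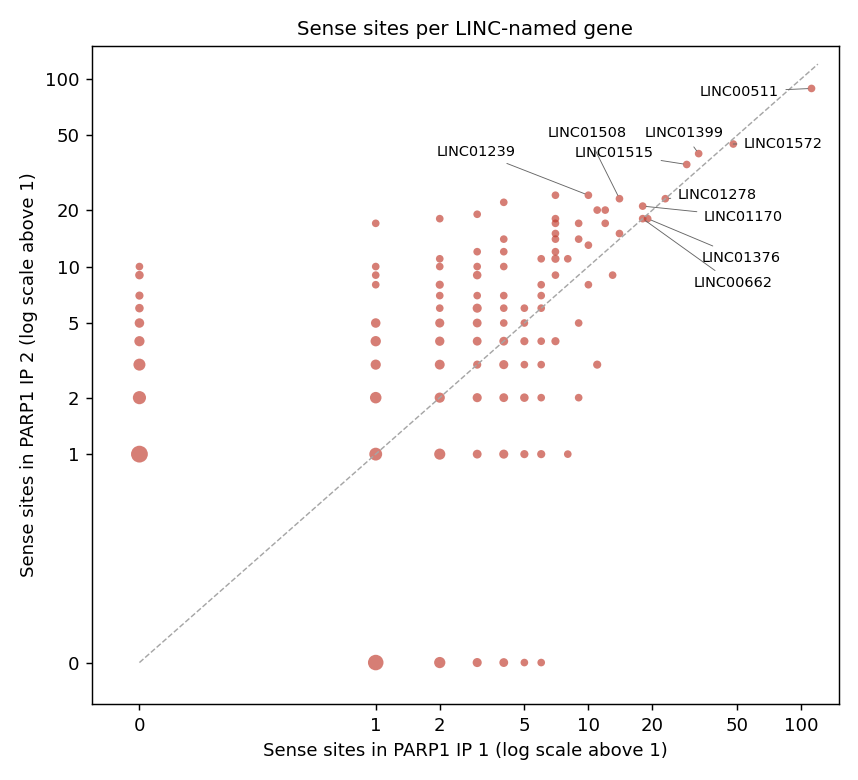
Sense sites per LINC-named gene in IP 1 (x axis) and IP 2 (y axis), both on a scale that is logarithmic above 1, with point size growing with the number of genes at a point, the dashed line marking equal counts and the 10 genes with the most sense sites named. LINC00511 stands at 112 and 89, and genes with 1 site in one IP and none in the other fill the points next to the axes.

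Most LINC-named genes had few sites. A single site was all that 248 of 538 genes had in IP 1 (46.1%) and 258 of 694 in IP 2 (37.2%). The 10 genes with the most sites held 20.8% of all LINC sites in IP 1 and 13.6% in IP 2. Across the 842 genes with a site, sense counts in the 2 IPs had a Spearman correlation of 0.33 and a Pearson correlation of 0.86, which was 0.78 without LINC00511. The points are genes of very unequal span in the same 2 libraries, and counts per 10 kb had a Spearman correlation of 0.08. The Pearson value rests mostly on the few genes with many sites, and ranks over these 842 genes were only weakly alike. The 1044 genes with no site in either IP were left out, and the correlation with them was not computed.

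Sites in both IPs were found in 390 LINC-named genes, 20.7% (18.9 to 22.6) of 1886, beside 23.3% of the 58735 genes of the annotation. In other long noncoding RNA genes the share was 12.1% of 14198, and in protein-coding genes 55.4% of 19947. The LINC share is near that of all genes. Sense sites in both IPs were found in 267 LINC-named genes and antisense sites in both in 175. A further 148 genes had sites in IP 1 only and 304 in IP 2 only.

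Whether a gene had sites moved with its span. The median span was 72.2 kb for the 390 genes with sites in both IPs and 6.67 kb for the 1044 with none. In 5 bins of span that each hold an equal number of LINC-named genes, the share with sites in both IPs was 1.85%, 6.90%, 12.2%, 23.1% and 59.4%. Other long noncoding RNA genes of the same spans had 0.957%, 5.37%, 12.8%, 29.6% and 56.8%. The intervals of these 2 classes overlapped in all 5 bins, just so in the fourth (18.9 to 27.7 and 27.5 to 31.7). Protein-coding genes had 5.55%, 20.3%, 41.4%, 67.8% and 85.7%. At like span, LINC-named genes were thus close to other long noncoding RNA genes and below protein-coding genes in every bin.

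**Figure D3:**
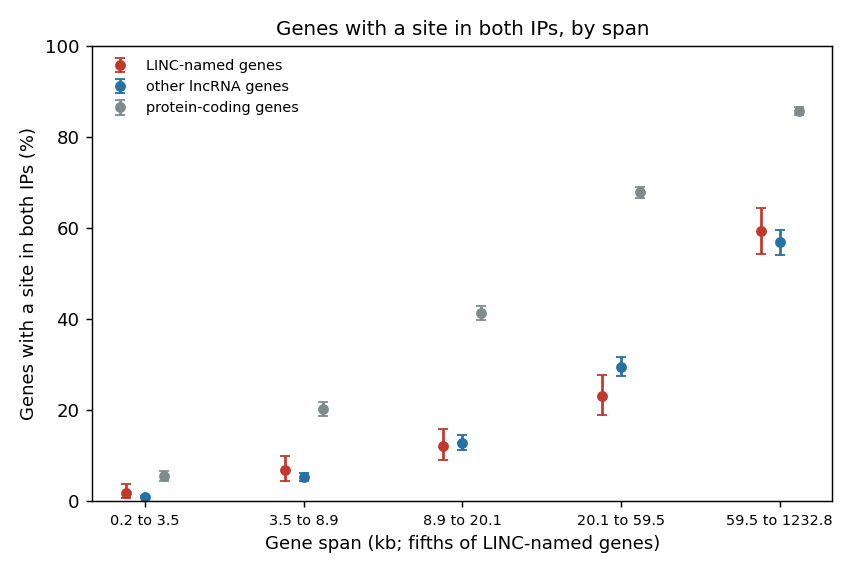
Share of genes with a site in both IPs (y axis, percent, bars are exact 95% binomial intervals) in 5 bins of gene span (x axis, kb) for LINC-named, other long noncoding RNA and protein-coding genes. In the longest bin the values are 59.4%, 56.8% and 85.7%.

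The longest LINC-named genes with no site in either IP were LINC01060 (280 kb), LINC02210-CRHR1 (215 kb), LINC00457 (205 kb), LINC02326 (190 kb) and LINC01720 (177 kb). LINC02210-CRHR1 is a readthrough with the coding gene CRHR1. All 5 fall in the longest bin of span, in which 59.4% of LINC-named genes had sites in both IPs.

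Over their summed span of 84.7 Mb, LINC-named genes had 0.148 (0.140 to 0.157) sense sites per 10 kb in IP 1 and 0.225 (0.215 to 0.235) in IP 2 with exact Poisson intervals. Other long noncoding RNA genes had 0.212 and 0.30, and protein-coding genes 0.766 and 0.924. On the opposite strand the classes lay closer together, with 0.0624 and 0.127 per 10 kb in LINC-named genes, 0.0576 and 0.107 in other long noncoding RNA genes and 0.0959 and 0.166 in protein-coding genes. Over the summed span, LINC-named genes were the lowest of the 3 classes on the sense strand. On the antisense strand the intervals of LINC-named (0.0572 to 0.0680) and other long noncoding RNA genes (0.0551 to 0.0602) overlapped in IP 1. In IP 2 they did not (0.119 to 0.135 and 0.103 to 0.110), and the LINC value was the higher. By span, LINC sense density was below that of other long noncoding RNA genes in both IPs in the 2 longest bins (0.125 and 0.185 against 0.244 and 0.365, then 0.140 and 0.225 against 0.194 and 0.273). In the middle bin it was also below in both IPs (0.226 and 0.249 against 0.235 and 0.312). In the second shortest bin it was above (0.279 and 0.407 against 0.270 and 0.368), and in the shortest it was above in IP 1 and below in IP 2. By chromosome, sense density was highest on chromosomes 22 (0.60 and 0.708) and 17 (0.581 and 0.504), which hold LINC01399 and LINC00511, and lowest on chromosome 13 (0.0492 and 0.101).

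Within the genes, sense sites lay about evenly from start to end. Divided into 5 equal parts from the annotated start, LINC-named genes held 21.3%, 22.5%, 18.4%, 17.5% and 20.2% of their IP 1 sense sites, and 19.6%, 21.0%, 19.5%, 21.1% and 18.8% of those of IP 2. In other long noncoding RNA genes the first part held 25.4% and the last 14.1% in IP 1, and 24.3% and 15.4% in IP 2. In the RefSeq windows around gene starts there were 9 LINC sites in IP 1 and 8 in IP 2, in 16 genes. The share of all sites in such windows was not counted, so these counts do not show if promoters held few sites.

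Antisense sites made up 29.6% (27.5 to 31.8) of LINC sites in IP 1 and 36.1% (34.3 to 37.8) in IP 2. The shares were 21.4% and 26.2% in other long noncoding RNA genes and 11.1% and 15.2% in protein-coding genes, so the LINC values were the highest of the 3 classes in each IP and the intervals did not overlap. Antisense density per 10 kb differed less between classes than sense density did. LINC-named genes had a lower sense density than other long noncoding RNA genes. Their antisense density was higher (0.0624 against 0.0576 in IP 1 and 0.127 against 0.107 in IP 2). The part of each in this share was not tested. LINC-named genes that overlap no other gene had 35.8% and 42.3% antisense sites, and those that overlap one had 26.4% and 32.7%. Without LINC00511 the LINC shares were 31.2% and 37.0%. Of the antisense bases, 7.56% in IP 1 and 6.42% in IP 2 lay in another annotated gene on either strand. Strand calls depend on how the library keeps strand, which is not given in the sources used here.

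Genes differed widely in strand. Of 123 LINC-named genes with 10 or more sites over both IPs, 18 had under 10% antisense sites, 70 had 10% to under 50% and 35 had 50% or more, with a median of 35.3%. In 22 of those 35, antisense sites were at least as many as sense sites in each IP. LINC01291, on chromosome 2 (20.3 kb), had 0 sense sites in both IPs and 9 and 6 antisense sites. LINC00513 had 2 and 3 sense sites and 8 and 8 antisense sites. Another annotated gene overlaps LINC01291, and 4 overlap LINC00513, these 4 on its opposite strand. Whether the antisense sites came from those genes was not tested. At the other end LINC01111 had 11 and 20 sense sites and no antisense site. These 3 genes were chosen after their values were seen.

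The genes with the most antisense sites were LINC01376, LINC00276, LINC00511, LINC00871 and LINC00882. LINC01376 (362 kb) had 13 and 15, which was 40.6% and 45.5% of its sites. LINC00276 had 4 and 15 antisense beside 9 and 2 sense sites, so the strand with more sites changed from one IP to the other. LINC00871 had 5 and 13 beside 0 and 9, and LINC00882 had 5 and 12 beside 7 and 24. LINC02086, one of the densest genes, had 0 antisense sites in IP 1 and 12 in IP 2. Strand balance was thus alike in the 2 IPs for LINC01376 and LINC01572, and not for LINC00276 and LINC02086.

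**Figure D4:**
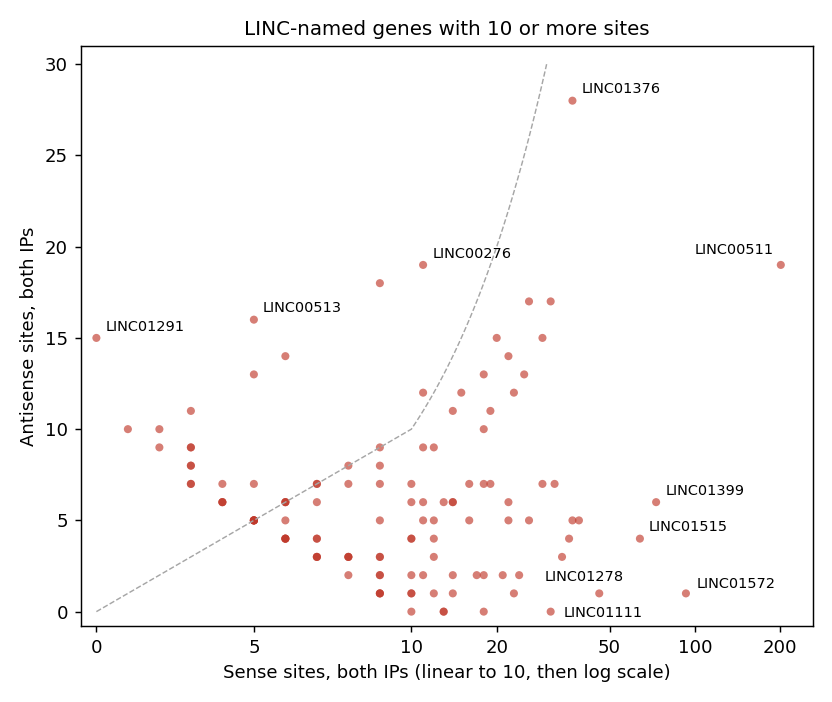
Sense (x axis, linear to 10 and logarithmic above) and antisense sites (y axis), summed over both IPs, for the 123 LINC-named genes with 10 or more sites; the dashed line marks equal counts. LINC01291 has 15 antisense sites and no sense site, LINC01376 has 28 antisense sites, and LINC01572 has 93 sense sites and 1 antisense site.

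IP 2 had more sites in LINC-named genes than IP 1. The ratio was 1.67 for LINC sites (1.52 for sense and 2.03 for antisense), 1.51 for other long noncoding RNA genes, 1.26 for protein-coding genes, 1.73 for intergenic sites and 1.38 for all sites. The LINC ratio thus lay near the intergenic one. More sites in IP 2 were found in 526 genes, more in IP 1 in 229, and equal numbers in 87. LINC00882 went from 12 sites in IP 1 to 36 in IP 2, LINC02223 from 5 to 26 and LINC02511 from 11 to 32. In the other direction LINC00511 went from 122 to 98, LINC00578 from 17 to 8 and LINC00839 from 8 to 1. These genes were chosen for their difference, so the values are a description.

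The share of LINC sites that recurred in the other IP was 2.46% (1.80 to 3.30) in IP 1 and 1.48% (1.08 to 1.98) in IP 2. Beside this stand 4.17% of all sites of IP 1 and 3.02% of all sites of IP 2, and 3.54% and 2.34% in other long noncoding RNA genes, 4.68% and 3.70% in protein-coding genes and 2.55% and 1.47% between genes. The LINC shares lay next to the intergenic ones. They lay below the protein-coding ones, with intervals that did not overlap. Allowing 5 bases either way gave 2.46% and 1.51%, allowing 50 gave 3.14% and 1.95%, and the same base on either strand gave 3.25% and 1.88%.

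Recurrence differed by region and by tag number. In LINC exons 6 of 86 sites of IP 1 (6.98%, 2.60 to 14.6) and 6 of 99 of IP 2 (6.06%, 2.26 to 12.7) recurred, in introns 2.48% and 1.61%, and antisense 1.70% and 0.838%. The exon intervals are wide and overlap the intron interval in IP 1, where they run from 1.67 to 3.54%, and just meet it in IP 2 (1.08 to 2.30%). With 3 or more mutated tags 9 of 71 (12.7%) and 10 of 127 (7.87%) recurred, and with 2 mutated tags 2.04% and 1.19%. Over all sites of the lists the shares were 8.97% and 7.47% in noncoding exons, 12.3% and 9.91% with 3 or more mutated tags and 3.44% and 2.39% with 2, so the same order of strata was seen outside LINC-named genes.

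**Figure D5:**
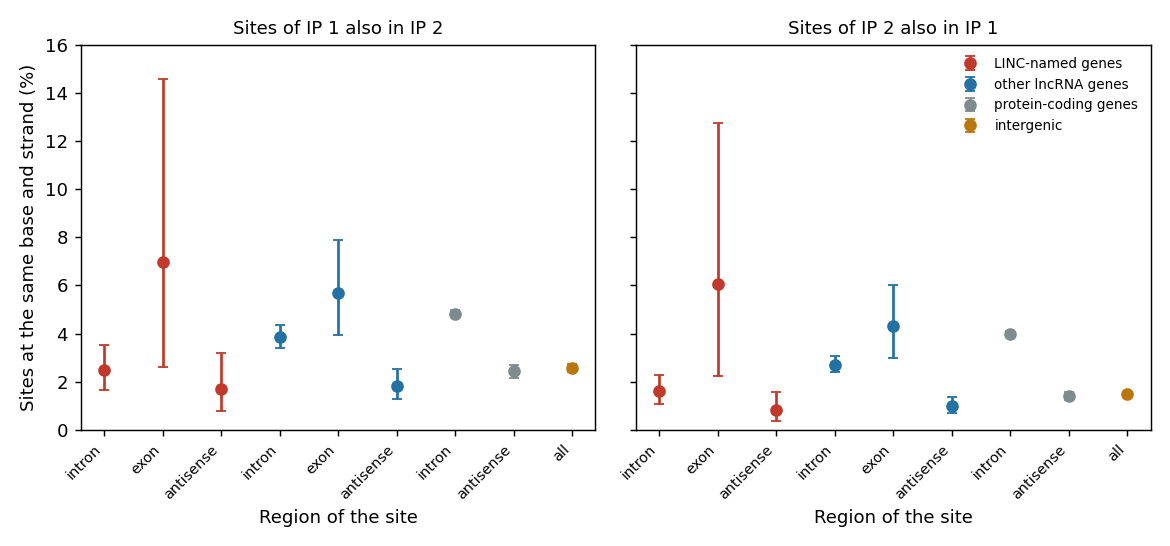
Share of sites at a base and strand also listed in the other IP (y axis, percent, bars are exact 95% binomial intervals) by gene class and region of the site, for IP 1 (left) and IP 2 (right). LINC introns lie at 2.48% and 1.61% and intergenic sites at 2.55% and 1.47%, and the 6 recurrent exon sites give a wide interval.

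The 44 recurrent bases lay in 27 genes. They comprised 29 intronic, 6 exonic and 9 antisense sites, and 36 substitutions, 5 deletions and 3 insertions, each with the same mutation type and gene in both IPs. All tags were mutated in both IPs at 42 of the 44, and 27 had exactly 2 of 2 in each. At LINC sites listed in 1 IP only, all tags were mutated at 92.0% in IP 1 and 95.4% in IP 2. No other annotated gene covered the base at 37 of the 44. A sense base in both IPs was found in 22 of the 1886 LINC-named genes, beside 5.33% of all genes of the annotation (3132 of 58735). The LINC share was thus the lower.

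At 3 bases both IPs had at least 3 mutated tags. An intronic insertion in LINC01572 (chromosome 16, base 72537816) had 4 of 4 and 3 of 3 tags mutated. A second LINC01572 base (72435564) was a substitution with 3 of 3 in each IP, and so was a LINC01399 base (chromosome 22, 35120738). Next by FDR was a LINC00630 deletion (chromosome X, 102878834) with 2 of 2 and 3 of 3. It was followed by the antisense deletions of LINC01376 and the bases of LINC00511 described next, and by an insertion in LINC01508 (chromosome 9, 90422170) with 4 of 4 and 2 of 2. No recurrent LINC base had more than 4 mutated tags in either IP.

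LINC00511 held 3 recurrent bases among its many sites. A substitution (chromosome 17, 72547342) had 4 of 10 tags mutated in IP 1 and 2 of 2 in IP 2, and an insertion (72545803) had 2 of 2 and 2 of 4. These were the 2 recurrent LINC bases at which some tags in one IP were not mutated. The third, a substitution (72412941), had 2 of 2 in each.

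LINC01399 had the most recurrent bases, 7, followed by LINC01376 with 5, LINC01572 with 4, LINC00511 with 3, and LINC00862 and LINC01693 with 2 each. All 7 of LINC01399 were intronic substitutions, and 3 of them (35162025, 35162045 and 35162064) lay within 40 bases of each other. The 5 of LINC01376 were all antisense, and 4 were consecutive deleted bases (chromosome 2, 19012613 to 19012616) with 2 of 2 tags in each IP, so they count as 1 event at most. The 2 of LINC01693 were 30 bases apart (chromosome 1, 211652212 and 211652242). Bases that lie this close can be covered by the same tags and are not independent.

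Long noncoding RNAs studied in epithelial tumours and invasion were looked up by a list of 16 symbols, of which 14 matched. Sites in both IPs were found in 8 of them, beside 20.7% of all LINC-named genes and 59.4% of those in the longest bin of span. LINC00511 and LINC00857 had a recurrent base. LINC00662 had 18 and 18 sense sites, LINC00963 6 and 11, and LINC01234 1 and 5 beside 3 antisense sites in each IP. LINC00261, LINC00460 and LINC00520 had none. Of a list linked to TGF-beta, p53 and DNA damage, 5 of 6 symbols matched and 3 had sites in both IPs, beside the same 20.7%. These were LINC00963, LINC00467 with 5 and 3 sense sites, and LINC01089 with 4 and 1, while LINC00472 had 1 and 0.

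Genes that once had a LINC symbol and now carry a name for a function were set beside these. Of 6, 3 had sites in both IPs, beside 12.1% of all other long noncoding RNA genes. CYTOR, named for the cytoskeleton, had 17 and 20 sense sites and MIR99AHG, a microRNA host gene, 8 and 12. NORAD, an abundant cytoplasmic RNA that binds Pumilio proteins, had 1 and 2, with up to 8 tags in IP 1 and 31 in IP 2. PANTR1, PURPL and TINCR had none. Of 14 other long noncoding RNAs, 10 had sites in both IPs, beside 12.1% of all other long noncoding RNA genes. PVT1, the neighbour of MYC, had 100 and 109 sense sites, near LINC00511. FTX and JPX, both of the X-inactivation centre, had 62 and 93, and 17 and 32, and LINC-PINT (its longer entry) 37 and 32. H19 and KCNQ1OT1, which are imprinted, had none. A site list gives no expression level, and a transcript whose tags match the reference has no site.

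Marker lists were read only for which genes were named. Of 11 tubule and epithelial genes, 9 had sites in both IPs and none was without a site, beside 55.4% of all protein-coding genes. By span that share was 20.3% in the bin of KRT18, KRT19 and LHX1. It was 67.8% and 85.7% in the 2 longest bins, which hold the other genes of the list. PAX8, a kidney tubule transcription factor, had 23 and 21 sense sites, and CDH2, which encodes N-cadherin, 30 and 30. Of 4 neural LINC-named genes LINC00461 alone had sites, with 1 and 2 sense and 0 and 3 antisense. Of 6 lymphocyte LINC-named genes 2 had sites in both IPs, LINC01781 with 3 and 5 and LINC00926 with 1 and 3 sense sites, and 2 had none. Beside these neural and lymphocyte lists stand the 20.7% of all LINC-named genes with sites in both IPs. The lymphocyte list was thus not below the LINC-named genes at large. Of 3 lymphocyte coding genes, CD3E and MS4A1 had no site and PTPRC had 1 antisense site in IP 1. None had sites in both IPs, beside the same 55.4% of protein-coding genes.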

How the data were processed

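RNA immunoprecipitation sequencing of HK-2 cells gave 2 lists of sites, 1 for each PARP1 IP. For each site the authors deposited 2 counts, tags and mutated tags, per the file headers. The authors also deposited an FDR for each site, a p-value type of measure, per the file headers. The submitters' processing notes name bcl2fastq, TopHat2 and GRCh38. How sites were called, how strand was kept and whether duplicate reads were dropped is not given in the sources used here. Tags were amplified without molecular identifiers and may repeat a molecule. Only bases where tags differ from the reference are listed, so the lists give neither library depth nor expression.

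Symbols, spans, classes and strands are those of GENCODE release 29 on GRCh38, with positions counted from 1. Of the gene identifiers in the lists, 99.1% in each IP were in it, 82.5% of IP 1 and 83.0% of IP 2 with the same version. Identifiers rather than symbols were counted, since 1886 identifiers share 1877 LINC symbols, and 7 genes on the Y chromosome are not shown by gene. Sites were matched by base and strand. Shares have exact (Clopper-Pearson) and densities exact Poisson intervals at 95%, and the matching was tested on simulated data. Sequences came from GENCODE transcripts and RefSeq promoter windows. Repeats could not be marked, because no genome sequence was used here. Python 3.11.15, pandas 2.3.3, numpy 2.4.6, scipy 1.17.1 and matplotlib 3.10.9 were used.

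The members, gene lists and alternatives were chosen with earlier results of these data known. The rule for named genes took the 10 with the most sense sites, the 10 with the most recurrent sense bases, the 5 densest with at least 5 sense sites in each IP, the 5 with the most antisense sites, the 10 with the strongest recurrent base by FDR, the 5 longest without a site, and from each list up to 4 with the most sites and up to 2 with none.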

Additional observations from a re-analysis of the deposited data

Results flagged for a closer look

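Sites listed as intergenic, and so in no gene of the lists, also lay inside the annotated spans of LINC-named genes. There were 228 such sites in IP 1, in 74 genes, of which 161 were on the gene's strand. In IP 2 there were 415, in 112 genes, of which 252 were on the gene's strand. They make up 0.651% and 0.685% of the intergenic sites, and no control IP was there to set beside them. The lists name older versions of some gene identifiers than the annotation used here, and the part of that difference in these sites was not tested. They are in none of the counts above.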

How the results depend on the processing

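Recurrence of LINC bases kept within its counting interval, in both directions, with strand ignored, within 5 or 50 bases, without bases in another gene, without LINC00511, with an FDR below each list's most common one, and with runs of consecutive bases counted once. The last, and LINC00511 left out of the antisense share, exon share and density, were chosen after seeing the data. With 3 or more mutated tags in both lists recurrence was 4.23% (3 of 71) in IP 1 and 2.36% (3 of 127) in IP 2. The 390 genes with sites in both IPs became 78 with an FDR below the most common, 16 with 3 or more mutated tags and 168 without genes that overlap another, each from fewer sites or genes. A single IP gave 538 to 694 genes, and genes with a present or older LINC symbol 468. The mean antisense share of 32.8% ± 4.54 (SD, n = 2) was 23.9% below the most common FDR and 14.9% with 3 or more mutated tags, and 29.6% to 36.1% in single IPs. The mean exon share of 6.02% ± 1.17 (SD, n = 2) was 8.29% and 13.3% under the same 2 settings, 8.03% with the exons of the reference annotation, and 5.20% to 6.85% in single IPs. The mean density of 0.187 ± 0.0542 sense sites per 10 kb (SD, n = 2) was 0.0500 and 0.00974, and 0.148 to 0.225 in single IPs. The cause of the antisense and exon shifts was not tested. The alternatives on repeats were not run. No paired analysis was possible because the inputs were not analysed here and the 2 IPs form 1 group.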
